A study of Mus musculus with 16 samples.

Results

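The 64 genes described here had their peak in the middle of a differentiation course of P19CL6 cells: their mean was high at day 6 and lower both before and at the end. They were selected on measured values. For each gene the probe set with the highest mean over 16 arrays was taken, and a gene was kept when its day 6 mean was at least 6 on the log2 signal scale and at least 1 log2 (2-fold) above each of the means of growth, day 4 and day 12. Of 18193 genes named by a single-gene probe set, 74 met these values. Of the 74, 10 were left out by symbol, because the selection excluded Hox, Fox, Col, Itg, Sema, Eph, Zfp and Slc symbols and 3 single genes. The high level at day 6 against growth, day 4 and day 12 is therefore the basis of the choice and not a finding, and it is given as a description with no test.

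P19CL6 is a single mouse embryonal carcinoma line, a derivative of P19 that forms heart muscle when it is grown with dimethyl sulfoxide (DMSO). Total RNA of whole cultures was measured on Affymetrix mouse arrays, 1 array per sample. The growth group (n = 3, letters A, B and C) was kept undifferentiated without DMSO by passage every 48 h. All other groups were plated in medium with 1% DMSO that was renewed every 48 h, and were taken at day 4 (n = 3), day 6 (n = 2, letters B and C), day 8 (n = 3), day 10 (n = 3) and day 12 (n = 2, letters A and C). Cultures kept without DMSO for the same number of days were not analysed here, so time in culture and DMSO cannot be told apart. The labels call the samples of a group independent without saying how, so p-values measure the spread between these samples.

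In embryos, gastrulation turns pluripotent epiblast into mesoderm through an epithelial-to-mesenchymal transition, in which cells loosen their junctions, remodel their cytoskeleton and matrix, and migrate. Mesoderm is then patterned by BMP, Hedgehog, Wnt and FGF signals and by homeobox and zinc finger factors before heart muscle genes come on. Several of the 64 genes have roles of this kind: the ligand gene Bmp2, the transcription factor genes Snai2, Gli2, Irx3, Pitx1 and Tead1, and regulators of small GTPases. The members also include genes of epithelia: the keratin genes Krt8 and Krt18 and the junction and polarity genes Pard6b, Llgl2 and Cgnl1.

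All values are log2 signals, on which 4 was taken as the limit of dim signal and a difference of 1 is 2-fold. Deposited values lay between 0.86 and 15.9, with array medians of 3.16 to 3.27, and 39.6% to 42.5% of probe sets per array were above 4. One array stood apart from its label. The day 8 array of letter A correlated with the day 6 arrays at r = 0.990 to 0.992, and with the other day 8 arrays at 0.956 to 0.967. These correlations were taken over the 10802 genes tested, with 1 probe set per gene. Heart muscle markers showed the same order: over 20 sarcomere genes the mean was 3.61 to 3.77 at day 6, 3.78 on day 8 array A, 5.80 and 6.51 on day 8 arrays B and C, and 8.65 to 9.04 at day 10. Of the 20, 5 were above 4 at day 6 and on day 8 array A, 14 on day 8 arrays B and C, and 17 or 18 at day 10. The main counts and medians that rest on day 8 are given below with and without array A. These are bulk RNA values, in which fewer cells of a type and less RNA per cell cannot be told apart.

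The excess of the day 6 mean over the highest of the other 3 means, called the margin here, ran from 1.00 to 5.0 with a median of 1.44. Day 6 means ran from 6.19 to 12.93 with a median of 8.76. The members just inside the margin were Nol4l at 1.02, Lrrn4 at 1.02 and Mn1 at 1.00, and the genes just outside it were Tab3 at 0.97, Nabp1 at 0.96 and Ctnnd2 at 0.95. The lowest day 6 means inside were those of Ptprn2 (6.19), Spry1 (6.34) and Tac2 (6.35), and the highest outside were those of Hspa12b (5.99), Nog (5.92) and Alpk3 (5.50). The highest of the other 3 means was that of day 12 for 44 members, of day 4 for 14 and of growth for 6. For Tdo2, Mme, Hapln1, Dpf3 and Tac2 all 3 of these other groups were dim, so the size of their margin depends on the background signal. Both day 6 arrays were above every growth, day 4 and day 12 array for 64 of 64 members.

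**Figure D1:**
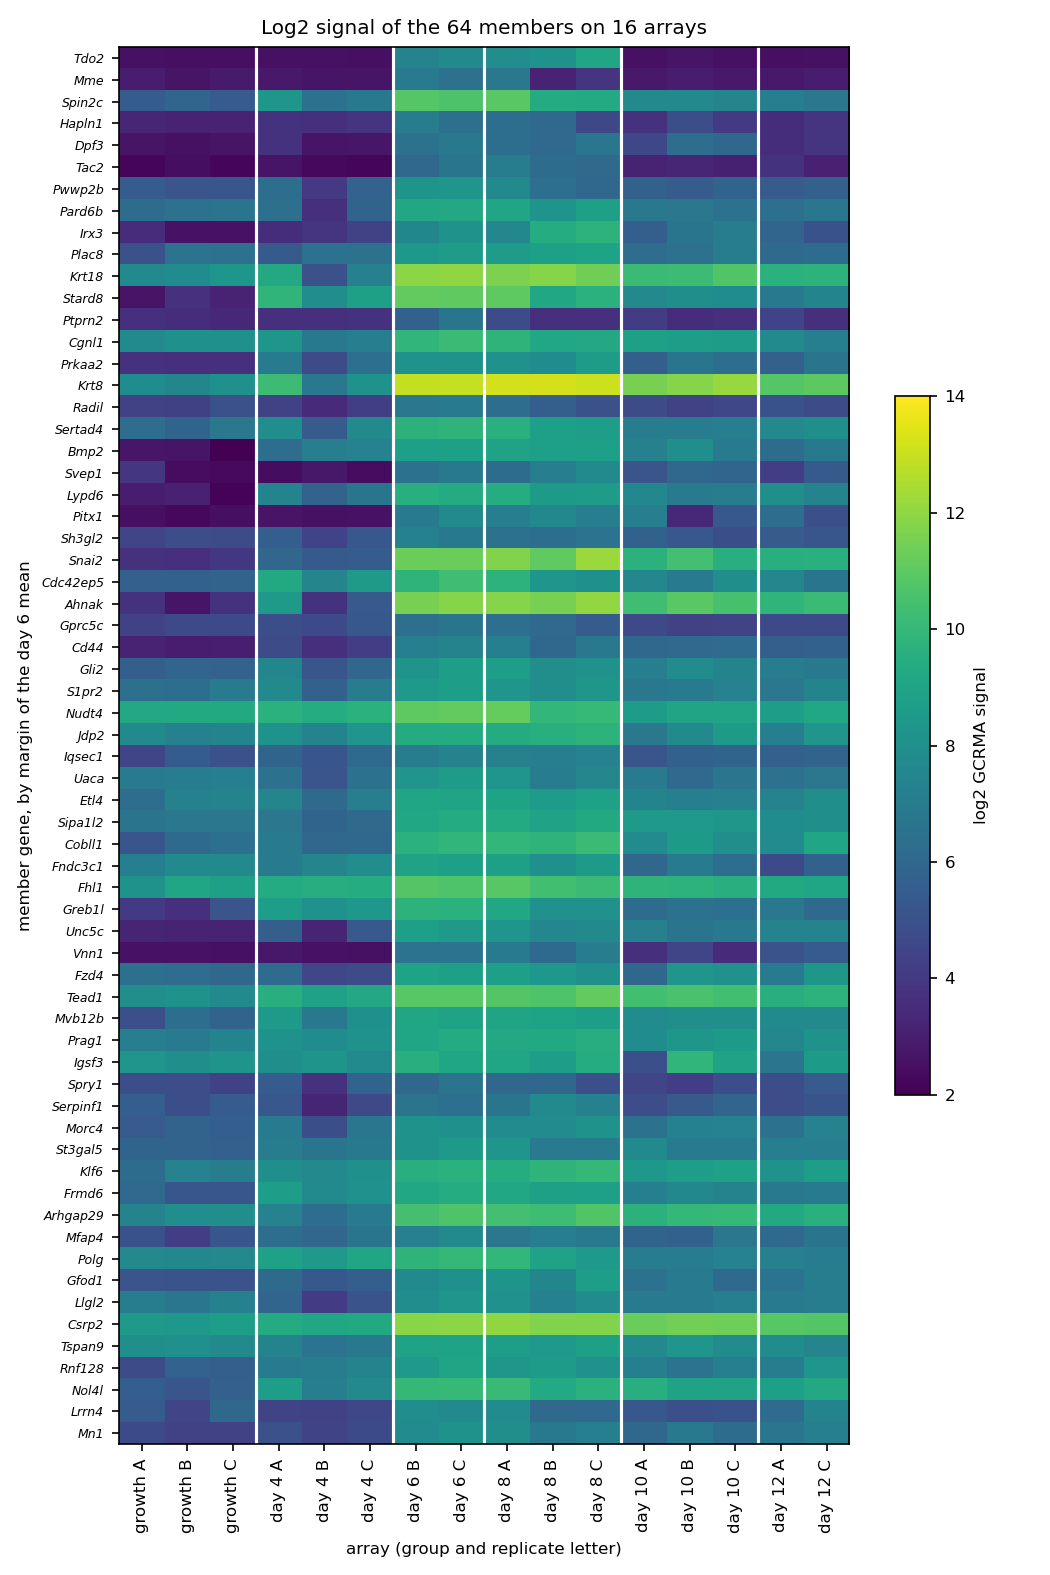
Log2 signal of each of the 64 members (down the plot, from the largest to the smallest margin) on each of the 16 arrays (across, by group and replicate letter), on a colour scale from 2 to 14. The day 6 columns are bright by selection; the day 8 columns, which the selection did not use, are bright for most members too, with Krt8 the brightest.

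Many members were still high at day 8, more of them on array A than on arrays B and C. As the median margin was 1.44, a day 8 mean within 1 log2 of day 6 can already lie close to the other groups. The day 8 mean lay within 1 log2 of the day 6 mean for 54 of 64 members, at least 1 below it for 9 and at least 1 above it for 1, Irx3. It was at or above the day 6 mean for 17. For 40 members the day 8 mean was itself at least 1 above the highest of the growth, day 4 and day 12 means. This number was 51 on array A alone and 34 for the mean of arrays B and C. At day 10 it was 1, the chromatin gene Dpf3, and 32 members were below that highest mean.

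Array A lay closer to day 6 than arrays B and C did. Its value was within 0.5 of the day 6 mean for 58 members, against 31 for the mean of arrays B and C. Arrays B and C lay at least 1 below day 6 on average for 16 members and array A for 1, Ptprn2. Array A was the highest of the day 8 arrays for 35 members, the lowest for 10 and between the others for 19.

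**Figure D2:**
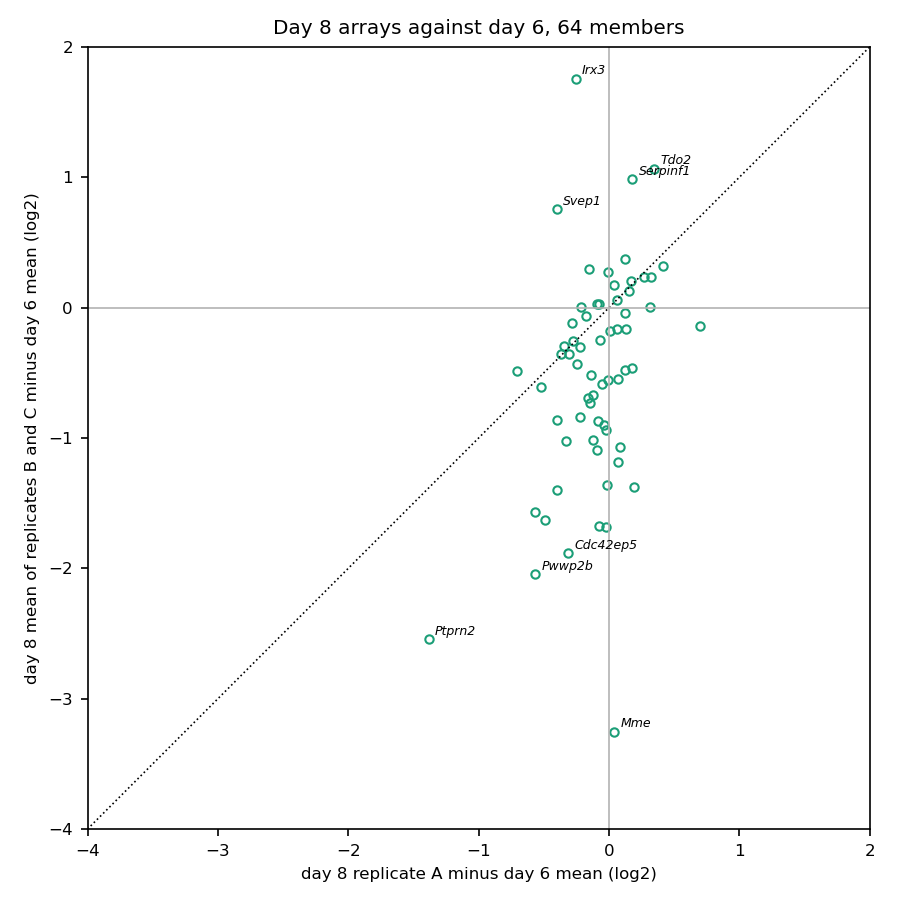
Difference of day 8 from the day 6 mean for each of the 64 members (log2), with array A across and the mean of arrays B and C upwards; the dotted line marks equal values. Array A was within 0.5 of day 6 for 58 members and the mean of B and C for 31, with Mme, Ptprn2 and Pwwp2b farthest below day 6 on B and C and Irx3 farthest above.

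The fall after day 6 lay mainly between day 8 and day 10, a step that the selection did not use. Of 64 members, 33 fell by at least 1 log2 at an adjusted p under 0.05 (limma, Benjamini-Hochberg over all 10802 genes tested), among them Tdo2, Tac2, Vnn1, Irx3, Spin2c, Plac8 and Snai2. Over all genes tested 3.19% were called lower and 4.62% higher. No member was called higher (limma), and 0 members had a positive difference at an unadjusted p under 0.05. Without day 8 array A, 27 members were called lower, 26 of them among the 33, against 2.31% of all genes. The choice of members required a lower mean at day 12 than at day 6, so a fall at some step after day 6 was built in; its place in time was not.

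The median difference of day 10 from day 8 was -1.28 over the members, with a range of -5.77 to -0.19, and -0.04 over all genes tested. Without array A these medians were -1.16 and -0.05, and 62 of the 64 differences were negative. Every day 10 array was below every day 8 array for 55 members, against 19.2% of all genes tested. With only day 8 arrays B and C the number was also 55, but the share of all genes was not computed for this case. Fewer arrays separate more easily, so the equal number does not show that array A is without effect. Of the 31 members not called, 5 had an adjusted p under 0.05 with a difference under 1. All 64 members passed the filter on dim values, and 61 were above 4 on at least 2 arrays outside days 6 and 8. The exceptions, Tdo2, Tac2 and Mme, passed only through arrays of days 6 and 8, and day 8 is a side of the test. The adjusted p of Tdo2 and Tac2 should be read with this limit.

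Split over 3 steps, the decline from day 6 to day 12 was largest between days 8 and 10 for 53 members, between days 6 and 8 for 7 and between days 10 and 12 for 4. The early group was Mme, Pwwp2b, Ptprn2, Radil, Cdc42ep5, Cd44 and St3gal5, and the late group was Dpf3, Cgnl1, Tead1 and Csrp2. Without array A the numbers were 45, 15 and 4, because Hapln1, Stard8, Uaca, Unc5c, Llgl2, Nol4l, Lrrn4 and Mn1 joined the early group. Median steps were -0.34, -1.28 and -0.12 in order of time, and -0.45 and -1.16 for the first and second without array A.

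**Figure D3:**
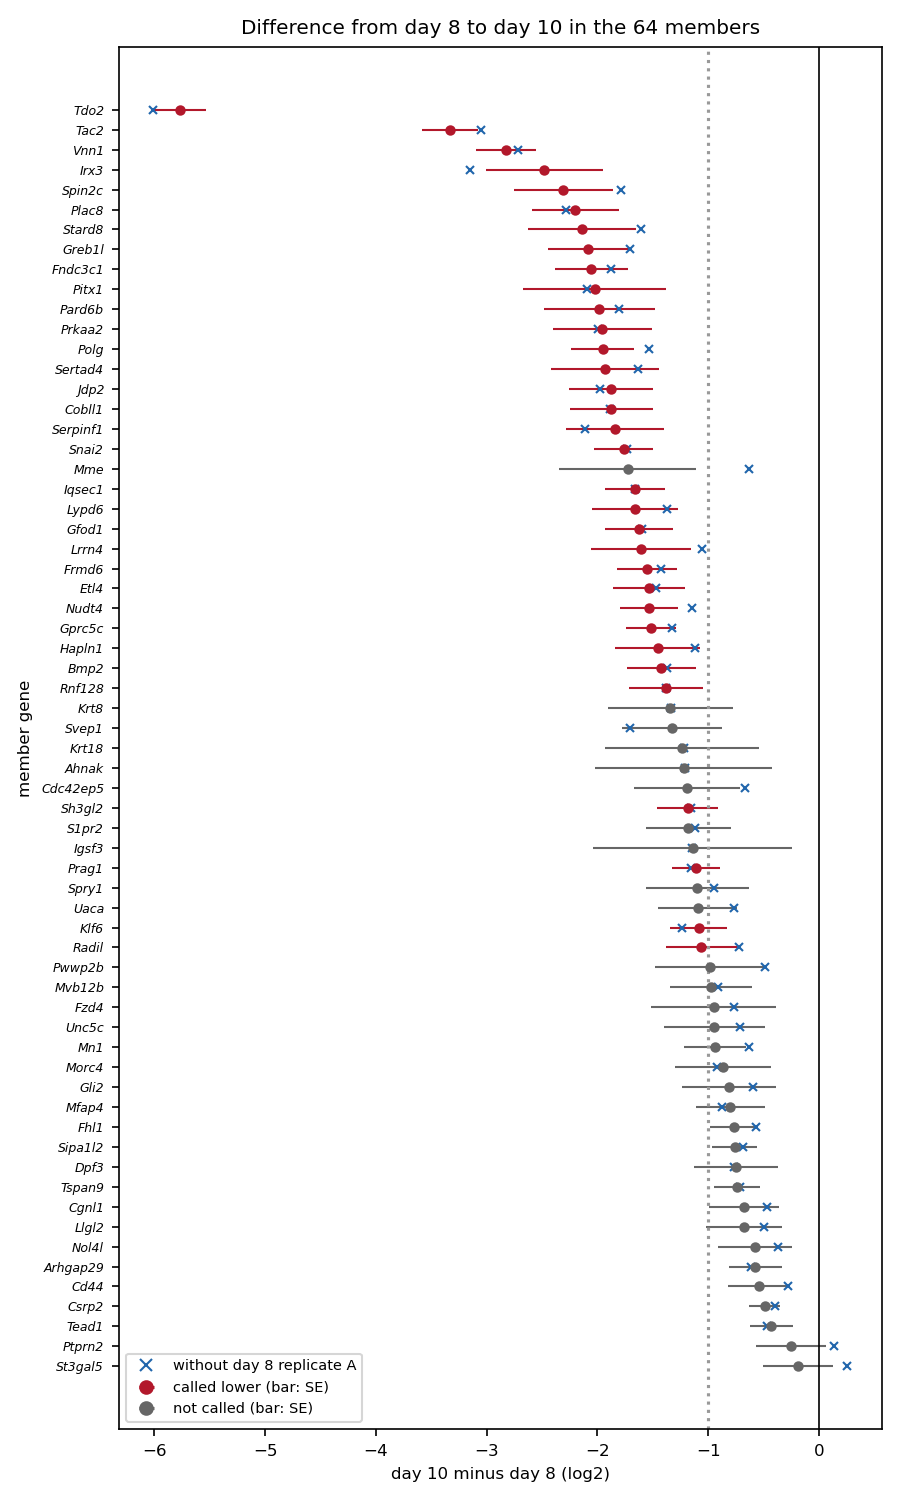
Difference of the day 10 mean from the day 8 mean (log2) with its standard error for each of the 64 members, red where called lower and grey where not called, with a blue cross for the difference without day 8 array A and a dotted line at -1. All 64 differences over 3 day 8 arrays are negative, 33 pass the test, and Tdo2 and Tac2 lie farthest from 0.

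The fall to day 10 went with higher heart muscle markers. Of 18 sarcomere genes tested, 17 rose from day 8 to day 10, among them Tnnt2, the cardiac form of troponin T, by 4.48 (adjusted p = 0.00199), and 15 did so without array A. Blood markers were at means of 2.82 to 4.91 at day 8 and 5.22 to 5.62 at day 10, smooth muscle markers at 3.72 to 5.66 and 5.60 to 6.14, endothelial markers at 3.34 to 4.27 and 3.84 to 4.26, and endoderm markers at 3.37 to 4.90 and 4.42 to 5.14. The lowest day 8 value of each of these 4 lists was that of array A. On day 8 arrays B and C blood markers were at 4.47 and 4.91, smooth muscle markers at 5.20 and 5.66, endothelial markers at 4.27 and 4.23, and endoderm markers at 4.90 and 4.00. The median difference of the tested genes from day 8 to day 10 was 3.03 for blood and 0.82 without array A, 1.29 and 0.20 for smooth muscle, 0.45 and -0.13 for endothelium, and 1.54 and 0.71 for endoderm. Means of neural markers were 3.38 to 3.59 at day 8 and 3.79 to 3.92 at day 10, and those of pluripotency markers 4.53 to 4.67 and 4.28 to 4.44. The part of these cells in the members' values was not tested.

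The members with the largest margins come first. Tdo2 encodes tryptophan dioxygenase, a haem enzyme of tryptophan breakdown best known from liver. Tdo2 read 2.53, 2.49 and 2.50 in growth, 2.52, 2.52 and 2.51 at day 4 and 7.36 and 7.69 at day 6. Its day 8 arrays gave 7.87, 8.12 and 9.07, followed by 2.52, 2.68 and 2.55 at day 10 and 2.51 and 2.53 at day 12. It was at a dim level on every array outside days 6 and 8 and far above it on all 5 arrays of those days, array A included. From day 8 to day 10 it fell by 5.77 (SE 0.23, adjusted p = 3.03e-09), which with the dim limit in place of day 10 is at least 20.4-fold lower, and it was called in each fit without 1 of the day 8 or day 10 arrays. The other Tdo2 probe sets on the array stayed dim in all groups, so this value rests on 1 probe set.

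Tac2 encodes the precursor of the tachykinin neurokinin B. In growth Tac2 was at 2.23, 2.45 and 2.21, at day 4 at 2.68, 2.24 and 2.20 and at day 6 at 6.03 and 6.68. Later values were 7.05, 6.26 and 6.16 at day 8, 3.13, 3.28 and 3.07 at day 10 and 3.76 and 3.11 at day 12. It shared the on and off pattern of Tdo2, with all of growth, day 4, day 10 and day 12 dim. From day 8 to day 10 it fell by 3.33 (SE 0.26, adjusted p = 2.47e-06), at least 5.62-fold lower against the dim limit. Mme, which encodes neprilysin, a surface enzyme that cleaves peptides including tachykinins, was the other member above 4 only at days 6 and 8. Signals of Mme were 2.95, 2.62 and 2.89 in growth, 2.81, 2.67 and 2.64 at day 4 and 6.91 and 6.54 at day 6. Mme then gave 6.77, 3.15 and 3.80 at day 8, 2.81, 2.91 and 2.82 at day 10 and 2.83 and 2.97 at day 12. Its day 8 level was that of day 6 on array A alone, and arrays B and C were dim. The difference of day 10 from day 8 was -1.73 (adjusted p = 0.0745). Without day 8 array A both groups were dim, and without day 8 array B the difference was -2.44 (adjusted p = 0.016).

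Spin2c belongs to the spindlin family of histone readers and is encoded on the X chromosome. Spin2c was at 5.51, 5.93 and 5.42 in growth, 8.37, 6.50 and 6.86 at day 4 and 10.85 and 10.64 at day 6. Spin2c values were 10.94, 9.39 and 9.35 at day 8, 7.64, 7.65 and 7.48 at day 10 and 7.12 and 6.77 at day 12. Levels stepped up from growth to day 4 to day 6, stayed high on array A, and were lower on arrays B and C. It fell by 2.31 to day 10 (adjusted p = 0.00437), 4.95-fold. Promoters of Tdo2 and Spin2c are shown because these genes were among the 3 with the largest margins. The sequences, from RefSeq on GRCm38.p6, are the 250 bases before each annotated start, 5′ to 3′ on the gene's strand, and capitals mark the motifs found. The Tdo2 stretch is chr3:81975729-81975978 (minus strand) and that of Spin2c is chrX:153832043-153832292 (plus strand).
Tdo2: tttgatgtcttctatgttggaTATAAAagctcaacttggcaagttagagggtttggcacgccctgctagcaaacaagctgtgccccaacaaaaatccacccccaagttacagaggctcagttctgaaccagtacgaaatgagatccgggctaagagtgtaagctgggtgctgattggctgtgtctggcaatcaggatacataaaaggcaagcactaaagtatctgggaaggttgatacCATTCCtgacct
Spin2c: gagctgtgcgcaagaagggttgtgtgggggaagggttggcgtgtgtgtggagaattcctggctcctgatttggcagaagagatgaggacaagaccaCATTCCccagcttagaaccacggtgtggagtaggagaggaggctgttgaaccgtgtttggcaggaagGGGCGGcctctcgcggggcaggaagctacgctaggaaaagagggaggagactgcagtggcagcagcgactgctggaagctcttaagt
The Tdo2 capitals are TATAAA, 229 bases before the start, and GGAATG (a TEAD motif) read on the reverse strand, 12 bases before it. The Spin2c capitals are GGAATG on the reverse strand, 154 bases before the start, and CCGCCC (a GC box) on the reverse strand, 87 bases before it.

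RefSeq promoters were matched for 50 of the 64 members, 67 promoters in all because some genes have several starts, and were set beside 32851 promoters of the table. On both strands, CCGCCC was in 58.2% of member promoters and 32.7% of all, and GGAATG in 19.4% and 12.6%. TATAAA was in 5.97% and 12.4%, and the AP-1 motif TGANTCA in 2.99% and 6.75%. The E-box letters CATCTG stood in 10.4% and 14.4%, the E-box letters CACGTG in 5.97% and 6.02%, the GATA motif AGATAA in 7.46% and 9.99%, the homeobox motif TAATTA in 2.99% and 4.84%, and the T-box motif AGGTGT in 8.96% and 11.8%. Such matches are letters in a window and not binding sites, and promoters of a gene with several starts can overlap. The differences were not tested.

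**Figure D4:**
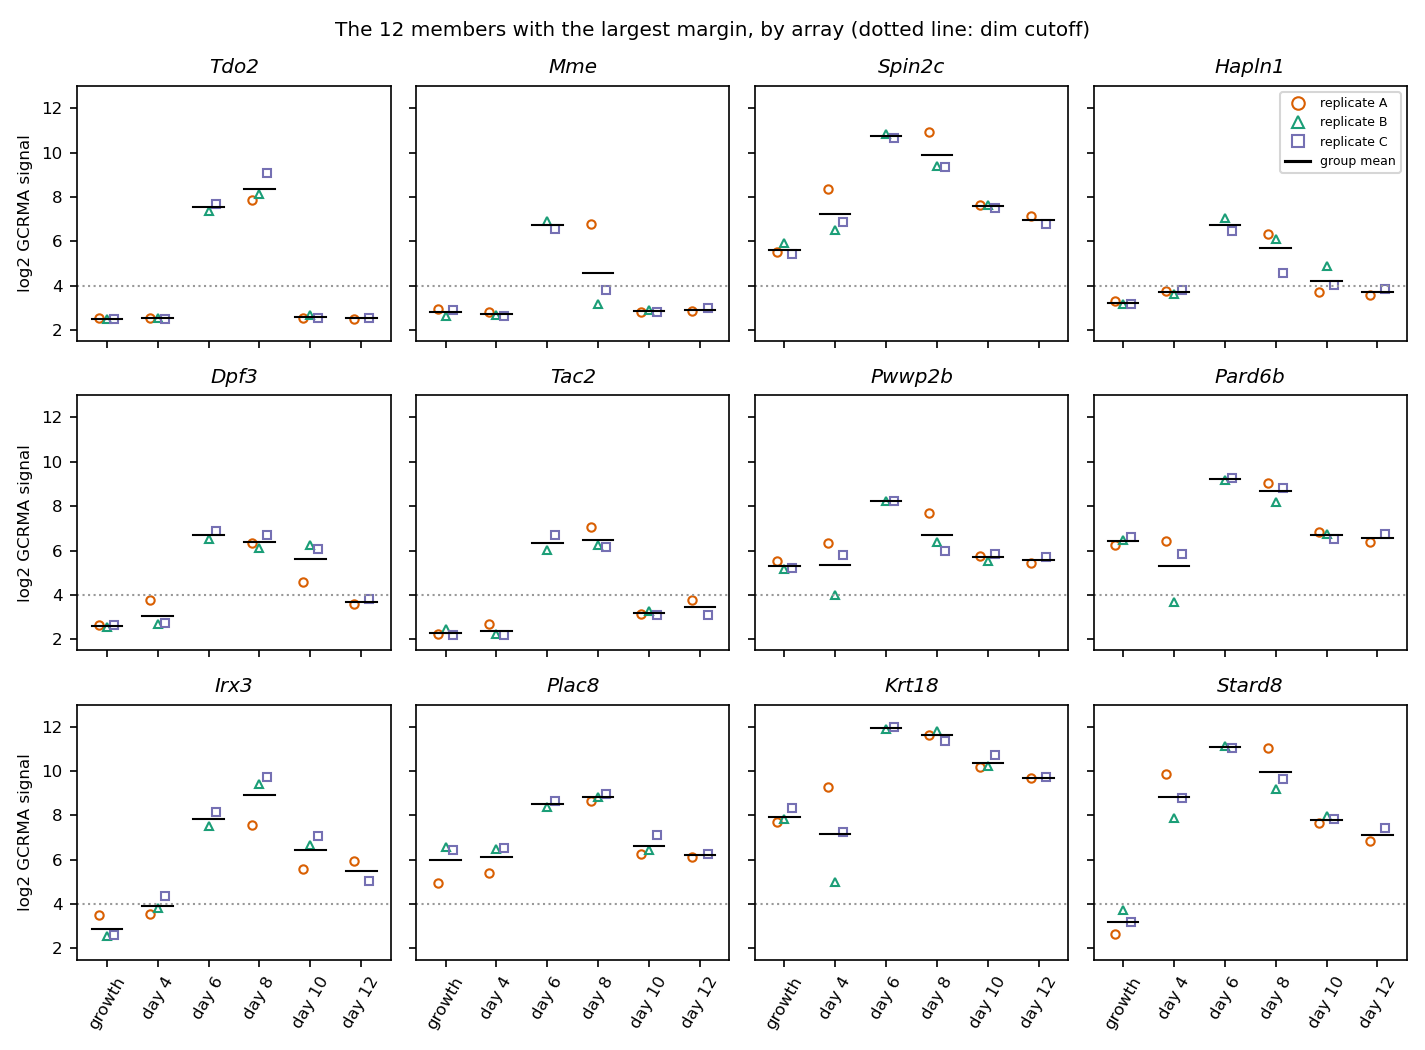
Log2 signal on each of the 16 arrays, by day, for the 12 members with the largest margins, 1 panel each; symbols are arrays by replicate letter, short lines are group means and the dotted line is the dim limit of 4. Tdo2 and Tac2 are high on the 5 arrays of days 6 and 8 only, Mme on the 2 day 6 arrays and 1 day 8 array, and Irx3 is highest on day 8 arrays B and C.

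The 6 secreted and matrix genes included 4 that fell from day 8 to day 10: Bmp2, Tac2, Hapln1 and Serpinf1. Bmp2, a ligand that acts through BMP receptors and Smad proteins and promotes heart mesoderm, is described here with values chosen after they were seen. Bmp2 read 2.71, 2.70 and 1.99 in growth, 6.29, 7.12 and 7.32 at day 4 and 8.79 and 8.81 at day 6. Its day 8 arrays gave 8.92, 8.75 and 8.76, followed by 7.21, 8.00 and 6.95 at day 10 and 6.26 and 6.87 at day 12. It was dim in growth, well above the dim limit on all day 4 arrays, nearly flat over the 5 arrays of days 6 and 8, and still above the limit on both day 12 arrays. It fell by 1.42 to day 10 (SE 0.31, adjusted p = 0.00854), 2.68-fold, with no overlap between the groups. Hapln1, a link protein that ties proteoglycans to hyaluronan in the matrix, had a less even course. In growth Hapln1 was at 3.31, 3.17 and 3.19, at day 4 at 3.74, 3.63 and 3.78 and at day 6 at 7.04 and 6.44. Later values were 6.34, 6.09 and 4.59 at day 8, 3.73, 4.90 and 4.03 at day 10 and 3.57 and 3.83 at day 12. Day 8 array C was far below the other day 8 arrays and below day 10 array B. The call (-1.45, adjusted p = 0.0222) was lost without any of day 8 A, day 8 B, day 10 A or day 10 C, where the adjusted p reached 0.1.

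Serpinf1, which encodes a secreted factor named for pigment epithelium, fell by 1.84 (adjusted p = 0.0134), and at 0.0577 it was not called without day 10 array A. Svep1, a large matrix protein gene, had a difference of -1.33 (adjusted p = 0.0616) and passed the test without day 8 array A (-1.71, adjusted p = 0.0388). Both were higher at day 8 than at day 6 on average.

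Of 12 surface and receptor genes, 4 fell: Vnn1, Lypd6, Lrrn4 and Gprc5c. Vnn1 encodes a membrane-anchored pantetheinase, which recycles vitamin B5. Signals of Vnn1 were 2.59, 2.57 and 2.54 in growth, 2.75, 2.60 and 2.54 at day 4 and 6.55 and 6.57 at day 6. Vnn1 then gave 6.88, 6.12 and 7.02 at day 8, 3.63, 4.50 and 3.43 at day 10 and 5.08 and 5.50 at day 12. Levels were dim in growth and at day 4, high on all 5 arrays of days 6 and 8, and lower at day 10 on every array; the day 12 arrays were above all day 10 arrays. Vnn1 fell by 2.82 to day 10 (SE 0.27, adjusted p = 1.81e-05); 2 of its 3 day 10 arrays were dim, and with values under 4 set to 4 it fell by 2.51. Only Lrrn4, which encodes a leucine-rich repeat membrane protein, was also at least 1 higher at day 12 than at day 10. Lrrn4 was at 5.47, 4.50 and 6.04 in growth, 4.47, 4.31 and 4.55 at day 4 and 7.89 and 7.73 at day 6. Lrrn4 values were 7.78, 6.17 and 6.09 at day 8, 5.24, 4.94 and 5.04 at day 10 and 6.18 and 7.41 at day 12. Its day 8 array A was at the day 6 level and arrays B and C were lower. It fell by 1.61 (adjusted p = 0.0288), a call lost without day 8 A or without any of the day 10 arrays, where the adjusted p reached 0.116.

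Lypd6 fell by 1.66 (adjusted p = 0.0124), and was not called without day 8 array A (0.0582). The guidance receptor gene Unc5c, a netrin receptor, and the hyaluronan receptor gene Cd44 were not called. Unc5c read 3.22, 3.22 and 3.13 in growth, 5.63, 3.23 and 5.36 at day 4 and 8.77 and 8.49 at day 6. Its day 8 arrays gave 8.30, 7.53 and 7.68, followed by 7.21, 6.62 and 6.84 at day 10 and 7.35 and 7.36 at day 12. In growth Cd44 was at 3.16, 2.97 and 3.02, at day 4 at 4.72, 3.64 and 4.21 and at day 6 at 7.18 and 7.36. Later values were 7.19, 5.99 and 6.82 at day 8, 6.06, 6.12 and 6.20 at day 10 and 5.62 and 5.73 at day 12. In both, growth was dim, day 10 and day 12 were far above growth, and over letters B and C the average step down from day 6 to day 8 was larger than that from day 8 to day 10. Differences of day 10 from day 8 were -0.95 (adjusted p = 0.18) for Unc5c and -0.54 (adjusted p = 0.217) for Cd44. Other receptor genes were Fzd4 for Wnt ligands and S1pr2 for sphingosine 1-phosphate, with differences of -0.95 and -1.18 and adjusted p of 0.282 and 0.0534. Igsf3 was uneven at day 10, with 4.95, 9.91 and 8.91 on arrays A, B and C, and another of its probe sets had a negative margin of -0.74.

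The 15 genes of transcription and chromatin had a median difference of -1.09 from day 8 to day 10, and 8 of them fell. Irx3, an Iroquois homeobox factor gene of limb and heart patterning, had its highest level at day 8. Signals of Irx3 were 3.50, 2.57 and 2.59 in growth, 3.57, 3.81 and 4.37 at day 4 and 7.51 and 8.15 at day 6. Irx3 then gave 7.58, 9.43 and 9.75 at day 8, 5.59, 6.65 and 7.07 at day 10 and 5.92 and 5.05 at day 12. Day 8 arrays B and C were above both day 6 arrays while array A was near them. It fell by 2.48 to day 10 (SE 0.53, adjusted p = 0.00751), 5.58-fold, and remained called without array A (0.000769). Snai2 encodes a zinc finger repressor of E-cadherin that marks neural crest and migrating mesenchyme. Snai2 was at 3.72, 3.67 and 3.94 in growth, 5.94, 5.41 and 5.49 at day 4 and 11.29 and 11.31 at day 6. Snai2 values were 11.71, 11.06 and 12.18 at day 8, 9.71, 10.39 and 9.56 at day 10 and 9.59 and 9.61 at day 12. From dim in growth and a moderate level at day 4 it reached its highest values on the 5 arrays of days 6 and 8, and both day 12 arrays were still far above growth. Snai2 fell by 1.76 to day 10 (SE 0.27, adjusted p = 0.000884), 3.39-fold. A further Snai2 probe set had a margin of 2.18.

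Pitx1, the homeobox gene of hindlimb identity, was uneven at day 10. Pitx1 read 2.51, 2.26 and 2.51 in growth, 2.64, 2.52 and 2.57 at day 4 and 7.0 and 7.71 at day 6. Its day 8 arrays gave 7.15, 7.61 and 7.12, followed by 7.12, 3.40 and 5.28 at day 10 and 6.28 and 4.93 at day 12. Its day 10 array A was at the day 8 level and array B was dim, so the groups overlapped. The call (-2.02, adjusted p = 0.0494) was lost without day 10 array B (-1.09, adjusted p = 0.152), without day 10 C and without any of the day 8 arrays. Dpf3, a subunit of BAF chromatin remodelling complexes linked to heart and muscle genes, was the 1 member whose day 10 mean was at least 1 above its growth, day 4 and day 12 means. In growth Dpf3 was at 2.63, 2.54 and 2.63, at day 4 at 3.77, 2.67 and 2.75 and at day 6 at 6.54 and 6.86. Later values were 6.35, 6.12 and 6.69 at day 8, 4.58, 6.27 and 6.05 at day 10 and 3.57 and 3.81 at day 12. Arrays B and C of day 10 were near the day 8 values and the day 12 arrays were dim. Its difference of day 10 from day 8 was -0.75 (adjusted p = 0.201).

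Pwwp2b, a chromatin protein gene, and Mn1, a coactivator gene, were not called. Signals of Pwwp2b were 5.51, 5.16 and 5.21 in growth, 6.33, 3.98 and 5.79 at day 4 and 8.23 and 8.24 at day 6. Pwwp2b then gave 7.67, 6.38 and 6.00 at day 8, 5.73, 5.51 and 5.86 at day 10 and 5.45 and 5.69 at day 12. Mn1 was at 4.70, 4.30 and 4.32 in growth, 4.98, 4.46 and 4.68 at day 4 and 7.77 and 8.10 at day 6. Mn1 values were 7.91, 6.83 and 7.16 at day 8, 6.04, 6.82 and 6.22 at day 10 and 6.71 and 7.16 at day 12. Pwwp2b had most of its decline before day 8 on arrays B and C, and Mn1 was higher at day 12 than at day 10 on average. Differences were -0.98 (adjusted p = 0.2) for Pwwp2b and -0.94 (adjusted p = 0.0363, under the minimum size) for Mn1, which passed both limits without day 10 B, day 8 B or day 8 C. Nol4l, also just inside the margin, had a difference of -0.58 (adjusted p = 0.271). The signalling factors Gli2, an effector of Hedgehog signals, and Tead1, the DNA-binding partner of the Hippo pathway coactivator Yap, were not called, at -0.81 (adjusted p = 0.218) and -0.43 (adjusted p = 0.149). Jdp2, a repressor of AP-1 sites, and Klf6, a zinc finger factor, fell by 1.88 and 1.09 (adjusted p = 0.00549 and 0.0132), and Klf6 lost its call without day 10 A (0.0546) or day 8 C (-0.97). Gli2, Tead1, Jdp2 and Klf6 were picked after their values were seen.

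Krt8 and Krt18 encode the paired type II and type I keratins of simple epithelia, which assemble only with each other's type, and they are neighbours on chromosome 15, the 1 pair of members next to each other in RefSeq gene order. Krt8 read 7.84, 7.53 and 8.04 in growth, 10.24, 6.83 and 8.13 at day 4 and 12.91 and 12.94 at day 6. Its day 8 arrays gave 13.19, 13.23 and 13.10, followed by 11.54, 11.80 and 12.16 at day 10 and 10.83 and 11.00 at day 12. In growth Krt18 was at 7.69, 7.84 and 8.31, at day 4 at 9.26, 4.98 and 7.23 and at day 6 at 11.91 and 12.00. Later values were 11.65, 11.82 and 11.38 at day 8, 10.19, 10.21 and 10.73 at day 10 and 9.67 and 9.74 at day 12. Both were high on every array of days 6 and 8 and lower on every day 10 and day 12 array, and their day 4 arrays spread most, with A high and B low. Differences of day 10 from day 8 were -1.34 for Krt8 (SE 0.57, adjusted p = 0.126) and -1.23 for Krt18 (SE 0.70, adjusted p = 0.258), which the test did not call. These SEs take in the spread of all groups. Standard deviations of Krt8 were 1.72 at day 4, 0.06 at day 8 and 0.31 at day 10. Those of Krt18 were 2.14, 0.22 and 0.31. Both genes were called lower when only the day 8 and day 10 arrays were fitted. That fit called 27 members, 23 of them among the 33 of the main fit. Krt8 had the highest day 6 mean of all members and is outside the naming rule. Its other probe sets gave margins of 2.11 and 2.15; keratin probe sets can bind transcripts of near-identical copies, which leaves these levels uncertain.

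The promoters of the pair are shown because of their shared course. They are the 250 bases before the starts on GRCm38.p6, chr15:102004343-102004592 (minus strand) for Krt8 and chr15:102027966-102028215 (plus strand) for Krt18, with capitals for motifs found.
Krt8: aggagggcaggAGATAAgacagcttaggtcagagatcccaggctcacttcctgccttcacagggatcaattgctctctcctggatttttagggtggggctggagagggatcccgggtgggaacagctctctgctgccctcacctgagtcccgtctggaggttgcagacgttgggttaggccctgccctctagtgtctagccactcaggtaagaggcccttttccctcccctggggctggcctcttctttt
Krt18: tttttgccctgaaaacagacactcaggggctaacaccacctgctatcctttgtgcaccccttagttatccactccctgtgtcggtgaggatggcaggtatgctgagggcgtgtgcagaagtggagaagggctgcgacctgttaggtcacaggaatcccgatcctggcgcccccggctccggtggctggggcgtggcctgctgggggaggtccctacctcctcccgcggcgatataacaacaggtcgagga
The Krt8 stretch held AGATAA, 239 bases before the start, and that of Krt18 held none of the letters searched.

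Of the 7 genes of keratins, junctions and polarity, Pard6b, Frmd6 and Cobll1 fell. Pard6b encodes an adaptor of the Par polarity complex. Signals of Pard6b were 6.23, 6.49 and 6.61 in growth, 6.45, 3.68 and 5.82 at day 4 and 9.17 and 9.25 at day 6. Pard6b then gave 9.05, 8.20 and 8.84 at day 8, 6.85, 6.76 and 6.53 at day 10 and 6.40 and 6.73 at day 12. Day 4 array B was low beside the other day 4 arrays, and days 6 and 8 were above all other groups. It fell by 1.98 to day 10 (adjusted p = 0.0173), and lost its call without day 8 A (0.0681) or day 10 C (0.0506). Frmd6, which acts upstream of the Hippo pathway, fell by 1.55 (adjusted p = 0.00218). Llgl2, a basolateral polarity gene, and Cgnl1, a junction protein gene, were not called, with differences of -0.68 each.

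Genes of small GTPase signalling and the cytoskeleton made up 14 members, 6 of which fell. Stard8, a GTPase-activating protein gene, had the largest margin of this set. Stard8 was at 2.64, 3.73 and 3.19 in growth, 9.85, 7.88 and 8.81 at day 4 and 11.13 and 11.06 at day 6. Stard8 values were 11.02, 9.19 and 9.65 at day 8, 7.65, 7.95 and 7.85 at day 10 and 6.85 and 7.43 at day 12. It was dim in growth and above the dim limit on every array of all other days. Stard8 fell by 2.14 to day 10 (SE 0.49, adjusted p = 0.0105), 4.40-fold, and 0.0451 was its adjusted p without array A. With only the day 8 and day 10 arrays fitted, Stard8 was not called (0.058). Among the other 13 were genes whose products act with the small GTPases Rap (Radil, Sipa1l2), Cdc42 (Cdc42ep5) and Arf6 (Iqsec1). Of these Iqsec1 fell by 1.66 (adjusted p = 0.00153) and Radil by 1.06 (adjusted p = 0.0378), the call of Radil being lost without any of the day 8 or day 10 arrays other than day 8 C, where the adjusted p reached 0.163. The other Iqsec1 probe set was at 5.36 at day 8 and 5.19 at day 10. With probe sets averaged, Iqsec1 was at -0.91, under the minimum size. Fhl1, a LIM-only protein gene of muscle, had a difference of -0.77 (adjusted p = 0.0297), under the minimum size.

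Ahnak, a giant scaffold protein gene chosen after its values were seen, was dim in growth. Ahnak read 3.77, 2.66 and 3.77 in growth, 8.50, 3.78 and 5.33 at day 4 and 11.54 and 11.81 at day 6. Its day 8 arrays gave 11.83, 11.54 and 12.05, followed by 10.32, 10.94 and 10.49 at day 10 and 9.85 and 10.19 at day 12. Its day 4 arrays ran from dim to 8.50, its day 6 and day 8 arrays were all above its day 10 arrays, and both day 12 arrays were far above growth. The difference of day 10 from day 8 was -1.22 (SE 0.80, adjusted p = 0.337), which the test did not call. This SE takes in the day 4 spread: the standard deviation of Ahnak was 2.41 at day 4, 0.26 at day 8 and 0.32 at day 10. Ahnak was called lower when only the day 8 and day 10 arrays were fitted.

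The 10 enzymes and other genes had a median difference of -1.79, and 8 fell, including Tdo2. Plac8, which encodes a small cysteine-rich protein, had no dim group. In growth Plac8 was at 4.96, 6.56 and 6.46, at day 4 at 5.40, 6.50 and 6.54 and at day 6 at 8.40 and 8.65. Later values were 8.65, 8.81 and 8.97 at day 8, 6.27, 6.46 and 7.11 at day 10 and 6.15 and 6.26 at day 12. Days 6 and 8 were above all other arrays, and it fell by 2.20 to day 10 (adjusted p = 0.00265), 4.59-fold. Polg, the mitochondrial DNA polymerase gene, fell by 1.95 (adjusted p = 0.000603), Prkaa2, a catalytic subunit gene of AMP kinase, by 1.96 (adjusted p = 0.011) and Nudt4, an inositol phosphate hydrolase gene, by 1.53 (adjusted p = 0.00199). Prkaa2 was not called without day 10 A (0.0505). Spry1, a feedback inhibitor of receptor tyrosine kinases, and St3gal5, the GM3 ganglioside synthase gene, were not called, at -1.10 (adjusted p = 0.128) and -0.19 (adjusted p = 0.745). All of these but Tdo2 and Plac8 are outside the naming rule.

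By role, the members called lower without day 8 array A were 6 of 15 for transcription and chromatin, 4 of 6 secreted and matrix genes, 2 of 12 surface and receptor genes, 2 of 7 for keratins, junctions and polarity, 5 of 14 for small GTPases and cytoskeleton, and 8 of 10 enzymes and others. The role medians without array A were -1.24, -1.54, -0.91, -1.33, -0.84 and -1.56 in this order.

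The call held in each of 6 fits that left out 1 day 8 or day 10 array for 20 of the 33 members called. Beside those named above, Rnf128 (0.0594 without day 10 B, 0.0508 without day 8 B), Sertad4 (0.0517 without day 10 A, 0.08 without day 8 A), Sh3gl2 (-0.99 without day 10 C) and Prag1 (-0.91 without day 10 A) lost it. Mfap4 gained it without day 10 C and Uaca without day 8 B.

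Before day 6 the members differed from each other. The day 4 mean was at least 1 above growth for 21 members, within 1 of it for 39 and at least 1 below it for 4 (Pard6b, Uaca, Fzd4 and Llgl2). With values under 4 set to 4 these numbers were 18, 42 and 4. Stard8, Bmp2 and Lypd6 were dim in growth and above 4 on every day 4 array, so their differences are lower bounds only. Growth was dim for 18 members, and both growth and day 4 for 9, including Tdo2, Mme, Tac2, Pitx1 and Vnn1. Day 4 arrays spread the most, with a median range over members of 0.95 against 0.43 in growth, 0.77 at day 8 and 0.62 at day 10. Array A was the highest of day 4 for 43 members and array B the lowest for 51. The day 6 arrays had a median difference of 0.22, and 0.92 at most (Ptprn2).

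At day 12 members were more often above than below their growth level. The day 12 mean was at least 1 above growth for 38 members, within 1 for 25 and at least 1 below for 1, Fndc3c1. With values under 4 set to 4 these numbers were 35, 28 and 1. Ahnak, Snai2, Lypd6, Unc5c and Bmp2 were dim in growth and above 4 on both day 12 arrays. Dim at day 12 were 5: Tdo2, Mme, Hapln1, Dpf3 and Tac2. From day 10 to day 12, 26 members had a higher mean, and Dpf3, Cgnl1 and Fndc3c1 were at least 1 lower.

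For 43 members the array held 71 further single-gene probe sets, of which 29 were under 4 at day 6. Of all 71, 59 had a day 6 mean above the growth, day 4 and day 12 means, 27 of them by at least 1, and the median margin was 0.66. The day 10 mean was below the day 8 mean for 63 of the 71, dim probe sets with very small differences included. Of the 42 at or above 4 at day 6, 41 had a day 6 mean above the growth, day 4 and day 12 means. For 38 of the 42 the day 10 mean was below the day 8 mean. The share over all probe sets was not computed. These probe sets were read from the same arrays, so the numbers are a description.

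Genes of the pathway lists were called in both directions from day 8 to day 10, beside 3.19% lower and 4.62% higher over all genes tested. Of 18 tested genes of lateral plate and limb mesenchyme, 5 fell from day 8 to day 10 (Irx3, Pitx1, Msx1, Msx2 and Gli3) and 6 rose (Prrx2, Tbx5, Hand2, Lhx2, Shox2 and Meis2), with a median of 0.44. Msx1, a BMP target homeobox gene, fell by 2.10 (adjusted p = 0.000493), and Shox2, a homeobox gene of limb and sinus node, rose from dim on all day 8 arrays (adjusted p = 0.000198). Without array A the numbers were 2 and 5, and the median 0.20. Of 14 neural crest genes, Snai2 was the 1 that fell, and 4 rose. Of 20 matrix remodelling genes, Hapln1 fell and 4 rose, 1 and 3 without array A. Lox, which crosslinks collagen, was among those that rose, from dim on all day 8 arrays (adjusted p = 2.43e-07). Irx3, Pitx1, Snai2 and Hapln1 are members, for which a fall at some step after day 6 was built in. Outside the members and with array A included, 3 of 16 lateral plate and limb genes fell, 0 of 13 neural crest genes and 0 of 19 matrix remodelling genes. Without array A, the 2 lateral plate and limb genes that fell included the member Irx3, and Pitx1 was not called. The 1 matrix remodelling gene that fell without array A was not Hapln1.

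Among 26 genes of chemokine and guidance cues, 1 fell (Nrp2, a semaphorin and VEGF co-receptor, by 1.34, adjusted p = 0.00562) and 4 rose, 3 and 5 without array A. Cxcl12, the chemokine ligand of Cxcr4, was among the 4, at 2.89 (adjusted p = 0.0197) and 1.79 without array A. Of 26 actin and adhesion genes, the protocadherins Pcdh18 and Pcdh19 fell (adjusted p = 0.0217 and 0.039), by 1.06 for Pcdh18 and to dim on all day 10 arrays for Pcdh19, and 2 rose, 0 and 1 without array A. Of 11 genes of paraxial and somitic mesoderm, 1 fell, Cdx2, a posterior homeobox factor gene, to dim on all day 10 arrays (adjusted p = 0.000516), and 1 rose, Tbx18, from dim on all day 8 arrays (adjusted p = 0.00311). Both numbers were the same without array A. List medians were 0.04 for neural crest, 0.18 for matrix remodelling, 0.24 for guidance, -0.17 for actin and adhesion and -0.02 for paraxial mesoderm, beside -0.04 over all genes tested. Without array A they were 0.02, -0.01, 0.08, -0.27 and -0.02, beside -0.05, so that the sign for matrix remodelling turned.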

How the data were processed

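RNA of 16 P19CL6 cultures was measured on Affymetrix mouse arrays. Per the submitters' processing notes the deposited values come from GCRMA, with no version given. GCRMA corrects background by probe sequence and normalizes arrays by quantiles, which hides a shift shared by most genes. The base of the logarithm is not stated, and the deposited values were read as log2 from their range. Of 45101 probe sets, 34945 named 1 gene, 932 several and 9160 none, and 64 were controls. The brightest probe set of each gene over all arrays was kept, and genes above 4 on at least 2 arrays, 10802 in number, were tested. No depth applies to arrays; their number limits the precision.

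Group means were estimated in 1 limma fit (version 3.58.1, R 4.3.3) that took in the 16 arrays together, with moderation by eBayes. It had 10 residual degrees of freedom, and 3.53 more came from the prior. The selection used growth, days 4, 6 and 12, so only day 10 minus day 8 was tested. A call needed a p under 0.05 after Benjamini-Hochberg adjustment across the tested genes, and a difference of at least 1 log2. SE is the moderated standard error. Where all day 10 arrays were under 4, the fold was computed against 4. The code was checked on simulated data.

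Members and gene lists were chosen with earlier results of these data known, and roles were assigned once the members were known. Named with values were the 12 largest margins, the 6 largest falls among calls, the 3 members and 3 other genes nearest the margin limit, and members in the pathway lists; members beyond this were picked after their values were seen. Alternatives covered the dim filter, normalization, the variance model, a replicate block, the arrays fitted, the probe sets and leaving out single arrays.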

Additional observations from a re-analysis of the deposited data

How the results depend on the processing

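Under the 18 alternatives run for day 10 against day 8, 25 to 38 members were called lower and 0 higher, against 33 and 0 in the report. The share of all genes called lower was 1.39% to 8.21%, highest with no minimum difference, against 3.19% in the main fit. The count for all genes, 844, was 368 when only the day 8 and day 10 arrays were fitted, which leaves fewer samples for the spread, and 1710 with no minimum difference. Leaving out single arrays gave 25 to 32 members called lower, lowest without day 10 replicate A, and 626 to 1079 genes in all. In these fits 2.31% to 4.24% of all genes were called lower. With no dim filter 27 members were called, with a limit of 6 35 of 63, and with probe sets averaged per gene 30. The shares of all genes called lower in these fits were 1.54%, 3.66% and 2.84%. Hapln1, Sh3gl2, Iqsec1 and Klf6 lost the call when probe sets were averaged. Of 1151 single gene values recomputed, 1072 stayed on their side of the test, 53 lost the call and 26 gained it. Changes of sign were counted only for members called in the main fit, and there were 0. Signs did change among members not called: without day 8 array A, Ptprn2 was at 0.13 and St3gal5 at 0.26.

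With the replicate block 36 members were called lower, against 3.3% of all genes, and 864 genes were called in all. Deviations of day 8 and day 10 arrays of the same letter correlated over genes at r = 0.04, -0.20 and -0.21 for A, B and C. Day 8 array A stood apart from arrays B and C, which shifts the day 8 deviations of every letter. These values therefore cannot decide whether letters mark pairs.

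The membership itself moved with the rule. A margin of 0.8 in place of 1 gave 90 genes and 1.5 gave 29. The mean of probe sets gave 38 genes, 35 of them among the 64, and quantile normalization again gave 61, of which 60 were shared. Single arrays left out of the rule gave 55 genes (without day 12 A) to 78 (without day 6 B). Days 6 and 12 had 2 arrays each, and 1 of the 3 day 8 arrays resembled day 6.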
